A study of Mus musculus with 42 samples.

Results

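Cerebellum from ad libitum fed control mice was compared between 2 collection times, 6 and 8 months of age. The comparison holds 10 of the 42 samples of the series: the 5 RNA-seq libraries of the group AL, collected at 6 months, and the 5 of the group AL_R, collected at 8 months. Members were chosen by these group labels and not by any measured value. All were C57BL/6 mice (male C57/BL6NTac by the design text) on a standard chow diet, entered at 3 months of age and kept with free access to food and water. AL_R mice carried the label of the refeeding phase, but its 2 months continued the feeding they already had, so no fast separates the groups. Whole cerebellum was flash frozen, so all its cell types enter each library. The series also holds 20 RNA-seq libraries of mice without food for 16 h of each day (IF16) or on alternate days (EOD), taken at 6 months or, after refeeding for 2 months, at 8 months. Its 12 chromatin immunoprecipitation and input samples were not used here. AL libraries were deposited in one table and AL_R libraries in another, so collection time and table, with any batch that the tables carry, cannot be told apart. The labels do not say whether each library came from its own mouse. P-values then measure only the spread between these samples, which may be technical.

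The cerebellum is built around Purkinje cells, its output neurons, and granule cells, its small and very numerous excitatory neurons. Both depend on calcium release from internal stores through inositol trisphosphate and ryanodine receptors, and on glutamate receptors. Ribosomal proteins and respiratory chain subunits are made from short, abundant mRNAs, while synaptic, channel and chromatin genes often have long ones. The choroid plexus, which makes cerebrospinal fluid, lies against the cerebellum in the fourth ventricle and can be taken along in a dissection.

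Total counts ranged from 30577782 to 34858564 per library, and mitochondrial genome reads made up 3.10% to 3.59% of them. Xist had at most 5 counts in any library, while the Y-linked genes had far more, from 318 to 569 counts for Uty up to 1153 to 2113 for Ddx3y, with Kdm5d at 572 to 1003 and Eif2s3y at 641 to 2031. Over the 20 pairs of libraries within a group, a chi-square statistic per degree of freedom lay between 4.22 and 136, so no pair agreed within sampling noise. AL libraries varied more than AL_R libraries: the spread between replicates beyond counting noise, as edgeR's common coefficient of variation, came to 17.7% in AL and 7.30% in AL_R, and 79.3% of genes had the larger standard deviation in AL. Markers of Purkinje and granule cells were abundant in every library, while summed markers of forebrain stayed at or below 13.8 CPM (read counts scaled to a common library size) and of liver at or below 2.44 CPM. Summed brainstem markers were 14.02 CPM in AL replicate 4, which stood apart, and 0.480 to 1.99 CPM in the other 9 libraries.

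Libraries also differed in 2 broader measures that the labels do not give. The first is the length gradient, the slope of a library's log2 CPM, centred per gene, on log2 gene length, which is positive where long genes read high. Gene length here and below is the length deposited with the counts, not the span of the gene on the chromosome. The gradient was 0.0447, -0.00612, -0.0126, -0.172 and -0.120 in AL replicates 1 to 5, and 0.0462, 0.0624, 0.0629, 0.0414 and 0.0539 in AL_R replicates 1 to 5. AL replicates 4 and 5 were far below the others and AL replicate 1 lay among the AL_R libraries. The mean gradient was 0.107 higher in AL_R (exact permutation p = 0.0159, two-sided, n = 5 and 5, where 0.00794 is the smallest p this design allows). The gradient is computed from the same counts as the fold changes. Entered as a covariate, it therefore takes up part of any difference between the groups that follows gene length, whatever its source.

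The second is choroid plexus content. Ttr, the transthyretin gene and the main choroid plexus transcript, had 17.6, 1935, 2736, 4125 and 1172 CPM in AL replicates 1 to 5, and 1824, 16.0, 200.3, 15.6 and 15.0 CPM in AL_R replicates 1 to 5. High and low libraries thus occurred in both groups, and the groups overlapped. Averaged over 12 choroid plexus markers, log2 CPM differed by -1.90 between AL_R and AL (exact permutation p = 0.103, two-sided, n = 5 and 5), in a comparison added after the data were seen. Without AL replicate 1 the difference was -2.64 (exact permutation p = 0.0317) and without AL_R replicate 1 it was -2.57 (exact permutation p = 0.0397), while leaving out any other library gave exact permutation p of 0.103 to 0.167. AL replicate 1 was near AL_R replicates 2, 4 and 5 in both measures.

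**Figure D1:**
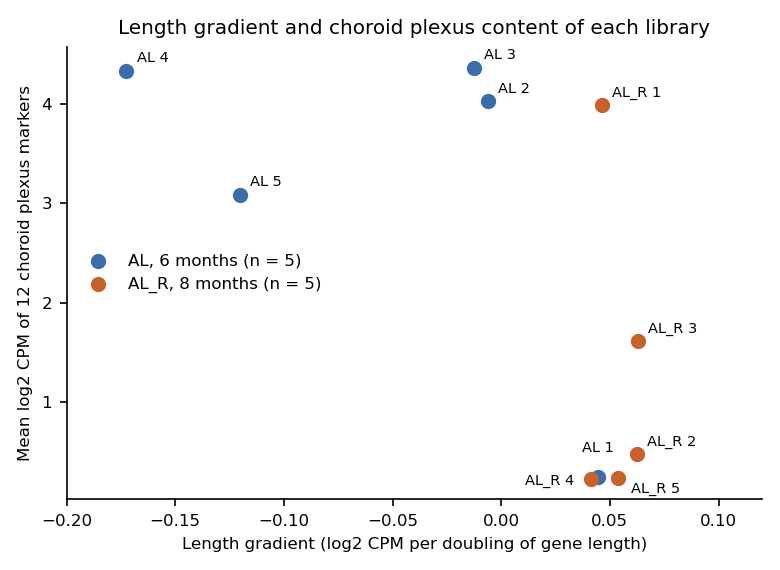
Each point is 1 library, with its length gradient on the x axis (log2 CPM per doubling of gene length) and the mean log2 CPM of 12 choroid plexus markers on the y axis. The AL_R libraries sit between 0.0414 and 0.0629 on the x axis, AL replicate 1 sits among them at 0.0447, and the other AL libraries lie to the left, down to -0.172.

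An adjusted p under 0.05, which is meant by a call here, was reached by 28 of 16313 genes (0.172%), 14 higher and 14 lower in AL_R. Those lower include 4 ribosomal protein genes and 2 genes of mitochondrial function, and those higher include 2 calcium release channels, a kainate receptor and chromatin genes. The rest are pseudogenes, genes without a descriptive name and genes of unrelated roles. In all 28 the values of the groups did not overlap. Without any adjustment, 2586 genes were higher (15.9%) and 2860 lower (17.5%) at p under 0.05. Every AL_R library lay above every AL library for 845 genes (5.18%) and below it for 776 (4.76%). The count of 28 depended on single libraries. It became 4610 without AL replicate 1, 57 without AL replicate 4, 9 without AL_R replicate 1, 3 without AL_R replicate 4, and 2 without AL replicate 3, AL replicate 5, or AL_R replicate 2, 3 or 5. No called gene changed direction in any of these fits, and Rps27 and the pseudogene Gm13340 stayed called in all 10 of them.

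The 4 ribosomal protein genes called lower were Rps27, Rpl39, Rpl34 and Rpl22l1. Their RefSeq start regions (GRCm38.p6), 60 bases long, are shown because ribosomal protein genes are known for starting transcription within a run of pyrimidines. Such a run gives the mRNA a terminal oligopyrimidine motif, through which its translation follows growth signals. Capitals mark the longest run of C and T within 20 bases of the start, and the first one if runs are equally long.
Rps27 (chr3:90213629-90213688, minus strand): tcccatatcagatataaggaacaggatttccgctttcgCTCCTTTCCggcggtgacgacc
Rpl39 (chrX:37085203-37085262, minus strand): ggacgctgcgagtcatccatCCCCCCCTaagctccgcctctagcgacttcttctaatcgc
Rpl34 (chr3:130730318-130730377, minus strand): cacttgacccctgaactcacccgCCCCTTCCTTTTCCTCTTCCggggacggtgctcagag
Rpl22l1 (chr3:28805468-28805527, plus strand): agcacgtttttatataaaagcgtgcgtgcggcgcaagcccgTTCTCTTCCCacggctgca
The first 40 bases of each line precede the annotated start. For Rpl39 the marked run lies wholly among them, so it would not be part of an mRNA made from that start. It is cut at the edge of the window, and an equally long run after the start is not marked. The longest run had a median of 7 bases over the 63 ribosomal protein genes with a promoter entry and of 5 bases over all 11546 genes tested that have one. For Rpl34 RefSeq lists a further start nearby, not shown, whose longest run is 8 bases against 20 bases for the one printed, so the run depends on the start chosen.

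Rps27 (ENSMUSG00000090733, mm10 chromosome 3, 90212725 to 90213615, minus strand), a protein of the small ribosomal subunit, had the smallest p of all genes together with Gm13340. It measured 154, 145, 154, 194 and 172 CPM in AL replicates 1 to 5, and 100.1, 98.4, 98.3, 88.7 and 101 CPM in AL_R replicates 1 to 5. The lowest AL library was well above the highest AL_R library. The log2 fold change was -0.75 (SE 0.0785, adjusted p = 0.00641).

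Rpl39, of the large subunit, had 87.7, 77.3, 85.5, 112 and 99.3 CPM in AL and 58.1, 61.1, 62.0, 61.6 and 58.1 CPM in AL_R, in replicate order. Rpl34, also of the large subunit, had 117, 108, 128, 156 and 137 CPM in AL and 88.6, 87.4, 87.0, 82.0 and 91.9 CPM in AL_R. Rpl22l1, a paralog of the large-subunit gene Rpl22, had 57.6, 53.8, 62.1, 74.5 and 64.0 CPM in AL and 40.7, 43.4, 43.7, 39.4 and 43.4 CPM in AL_R. In each of these genes AL replicate 4 was the highest library and AL replicate 2 the lowest AL library. The log2 fold changes were -0.62 for Rpl39 (SE 0.0891), -0.57 for Rpl34 (SE 0.0890) and -0.57 for Rpl22l1 (SE 0.0822), each with an adjusted p of 0.0305. Per kilobase of gene length, which allows levels of different genes to be compared, Rps27 stood at 642 in AL, Rpl34 at 182, Rpl39 at 151 and Rpl22l1 at 128 CPM per kilobase.

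Over the list of cytosolic ribosomal proteins, 85 of 87 genes in the table were tested. Beside the 4 called lower and none called higher, 72 (84.7%) were lower at an unadjusted p under 0.05 and 2 (2.35%) were higher. Over all genes tested these shares were 17.5% and 15.9%. In 46 every AL_R library was below every AL library, beside 4.76% of all genes tested. The median log2 fold change was -0.36, against -0.0134 over all genes tested. The summed level of the list was 13043, 12985, 14177, 19735 and 16406 CPM in AL replicates 1 to 5, and 11605, 11635, 11874, 12019 and 12127 CPM in AL_R replicates 1 to 5. The groups did not overlap, and AL replicates 4 and 5, the libraries with the lowest length gradients, were the highest. The exceptions with higher values in AL_R were Rpl23a, at 5.56 ± 1.1 CPM in AL and 7.85 ± 0.65 in AL_R, and Rpl35, at 12.8 ± 3.8 and 17.8 ± 1.9 (SD, n = 5 each), with adjusted p of 0.0645 and 0.0905. Both were named after their values were seen. Ribosomal protein genes have many near-identical processed copies, so reads may be divided between them. Rpl31-ps8, a pseudogene of Rpl31 on chromosome 15, was itself called lower, with a log2 fold change of -0.84 (SE 0.107, adjusted p = 0.0242).

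With AL replicates 4 and 5 left out together, 29 ribosomal protein genes were called lower, beside 230 of all 16587 genes tested. With the length gradient as a covariate, 5 were called lower, beside 26 of all 16313, and the median of the list was -0.05. Ribosomal protein genes are short, with a median length of 930 bases. Among all genes tested, the shortest of 5 length classes of equal size, up to 1626 bases, had a median log2 fold change of -0.21.

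**Figure D2:**
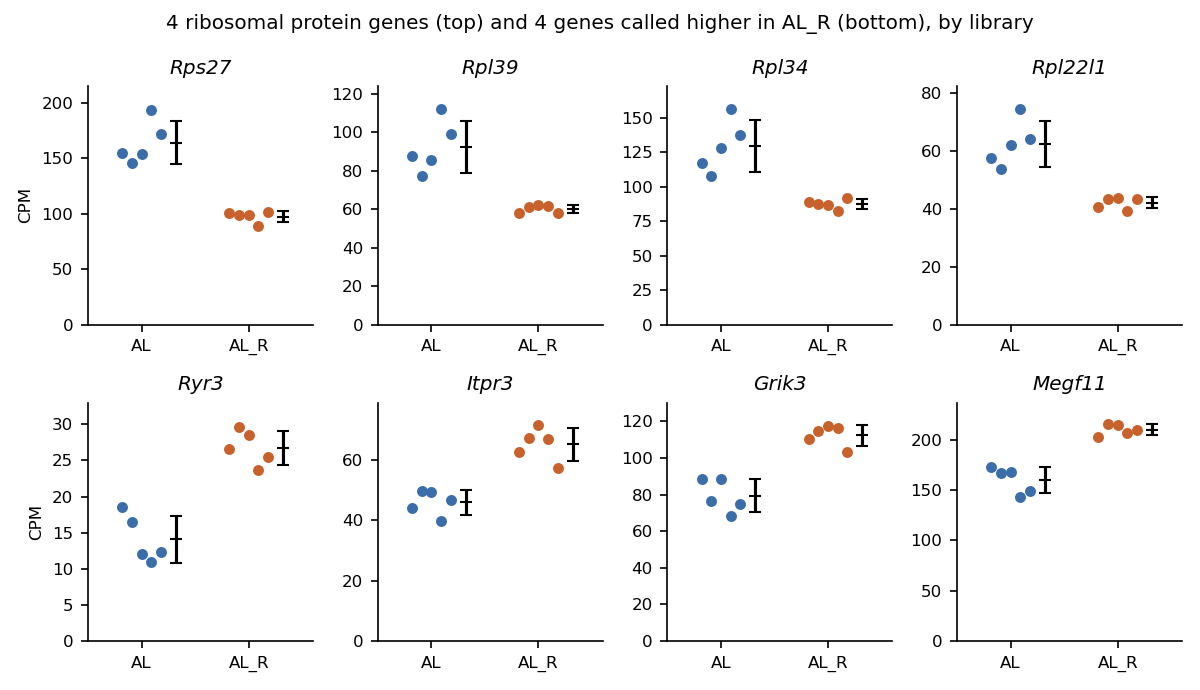
CPM of 8 called genes in each library, with AL on the left and AL_R on the right of each panel, and the mean ± SD of the 5 libraries beside the points. The y axes start at 0. All AL_R points lie below all AL points for Rps27, Rpl39, Rpl34 and Rpl22l1, and above them for Ryr3, Itpr3, Grik3 and Megf11.

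Mitochondrial genes gave 2 further calls. Mrpl33, a protein of the mitochondrial ribosome, had 23.1, 27.1, 27.02, 33.0 and 29.2 CPM in AL and 18.3, 19.0, 17.8, 18.1 and 19.5 CPM in AL_R (log2 fold change -0.59, SE 0.0869, adjusted p = 0.0305). Cycs, cytochrome c, which carries electrons between respiratory complexes and triggers apoptosis when released, had 186, 191, 193, 204 and 212 CPM in AL. In AL_R it had 152, 158, 155, 143 and 168 CPM (log2 fold change -0.35, SE 0.0584, adjusted p = 0.0457). The AL_R values of both genes lay in a narrow band below all AL values.

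None of the 82 nuclear genes tested that encode respiratory chain subunits was called, with a smallest adjusted p of 0.0505. At an unadjusted p under 0.05, 62 (75.6%) were lower and none higher, beside 17.5% and 15.9% of all genes tested. In 27 every AL_R library was below every AL library, beside 4.76% of all genes tested. The median log2 fold change was -0.31. The gene with the smallest p was Uqcrb, of complex III, at 71.0 ± 10.4 CPM in AL and 50.1 ± 0.48 in AL_R (SD, n = 5 each), named after its values were seen. With the length gradient as a covariate, 1 gene was called in each direction, beside 38 higher and 26 lower of all 16313 genes tested, and the median was -0.00288. The median length of these genes is 957.5 bases. The 12 tested mRNAs of the mitochondrial genome, transcribed within the organelle, had 3 members higher (25%) and 2 lower (16.7%) at an unadjusted p under 0.05 and a median of -0.02. Proteasome genes, which form the protein-degrading complex, had no call among 38 tested and a median of -0.21. At an unadjusted p under 0.05, 20 members (52.6%) were lower and 1 (2.63%) higher.

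The remaining named genes called lower were Serpinb1a and Rgs2. Serpinb1a, an inhibitor of neutrophil serine proteases, had 14.6, 15.2, 15.7, 19.1 and 19.3 CPM in AL and 9.35, 11.9, 10.2, 11.5 and 11.4 CPM in AL_R (log2 fold change -0.63, SE 0.103, adjusted p = 0.0412). Rgs2, which shortens signalling through G proteins, had 20.5, 18.7, 19.99, 22.6 and 21.2 CPM in AL and 13.99, 14.8, 15.9, 15.6 and 15.8 CPM in AL_R (log2 fold change -0.44, SE 0.0690, adjusted p = 0.0306). Rgs2 thus showed little spread within either group. The other 5 genes called lower besides Rpl31-ps8 have no descriptive name: Gm1821 (-1.11), Gm3788 (-0.94), Gm10076 (-0.85), Gm6563 (-0.55) and 0610040J01Rik (-0.55), given with their log2 fold changes. Gm1821 and Gm3788 are annotated as pseudogenes.

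Among the genes called higher, 2 encode calcium release channels of the endoplasmic reticulum. Ryr3 (ENSMUSG00000057378, mm10 chromosome 2, 112631355 to 113217096, minus strand), the type 3 ryanodine receptor, had 18.5, 16.5, 12.1, 10.9 and 12.3 CPM in AL and 26.5, 29.6, 28.5, 23.7 and 25.4 CPM in AL_R. Its log2 fold change of 0.92 (SE 0.138, adjusted p = 0.0305) was the largest among the protein-coding genes called. Itpr3, the type 3 inositol trisphosphate receptor, had 43.9, 49.5, 49.3, 39.8 and 46.5 CPM in AL and 62.4, 67.3, 71.4, 66.8 and 57.2 CPM in AL_R (log2 fold change 0.50, SE 0.0779, adjusted p = 0.0305). Every AL_R value exceeded every AL value in both genes. The deposited gene length is 15410 bases for Ryr3, far less than its coordinates span, and 8990 bases for Itpr3.

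Grik3, a kainate-type glutamate receptor subunit, had 88.7, 76.4, 88.8, 68.1 and 75.0 CPM in AL and 110.4, 115, 117, 116 and 103 CPM in AL_R (log2 fold change 0.50, SE 0.0784, adjusted p = 0.0305). It was the only call among 25 glutamate receptor genes tested. In that list 5 members (20%) were higher and 1 (4%) lower at an unadjusted p under 0.05, beside 15.9% and 17.5% of all genes tested, so the share higher is near the background. In 4 every AL_R library lay above AL, beside 5.18% of all genes tested, and the median was 0.10.

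Megf11, a transmembrane protein with EGF-like repeats that spaces neurons of one type in the retina, had 173, 167, 168, 143 and 149 CPM in AL and 202, 216, 215, 206 and 210 CPM in AL_R (log2 fold change 0.39, SE 0.0605, adjusted p = 0.0305). The chromatin genes were Srcap, the remodeller that places the histone variant H2A.Z, and Trrap, a scaffold of histone acetyltransferase complexes. Srcap had 122, 124, 118, 111 and 105 CPM in AL and 154, 158, 153, 138 and 154 CPM in AL_R (log2 fold change 0.38, SE 0.0604, adjusted p = 0.0305). Trrap had 118, 116, 116, 94.4 and 102 CPM in AL and 137, 154, 148, 150.4 and 142 CPM in AL_R (log2 fold change 0.42, SE 0.0704, adjusted p = 0.0457). AL replicates 4 and 5 were the lowest libraries for Srcap, Trrap and Megf11 alike.

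A further set of called genes was expressed at lower levels. Slc44a5, a choline transporter-like protein, averaged 3.60 ± 0.54 CPM in AL and 6.17 ± 0.60 in AL_R (log2 fold change 0.77). Fmn1, a formin that builds actin filaments, averaged 6.68 ± 1.4 and 11.4 ± 0.35 CPM (0.77). Ost4, a small subunit of the complex that attaches sugars to nascent proteins, averaged 5.53 ± 0.64 and 8.73 ± 0.77 CPM (0.66). Of these, Ost4 is the short gene, with 1144 bases. Farp2 averaged 4.59 ± 0.25 and 6.77 ± 0.73 CPM (0.56), and Jade3, a subunit of a histone acetyltransferase complex, 3.77 ± 0.28 and 5.41 ± 0.27 CPM (0.52). These errors are SD over n = 5, and the 5 adjusted p lay between 0.0305 and 0.0490. The other genes called higher were Rab37, a small GTPase of secretory vesicles, with a log2 fold change of 0.33, and 2 neighbouring pseudogenes on mm10 chromosome 2, Gm13340 and Gm13341. Gm13340, at 22588103 to 22589647, had 5.87, 5.10, 5.79, 4.72 and 4.11 CPM in AL and 12.1, 9.98, 10.8, 13.0 and 9.70 CPM in AL_R, with a log2 fold change of 1.12 (SE 0.121, adjusted p = 0.00641). These pseudogenes and Rab37 lie outside the naming rule and were named after their values were seen.

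Gene length ordered the differences over the whole table. With the genes tested divided into the 5 length classes, the median log2 fold change was -0.21, -0.12, -0.03, 0.05 and 0.20 from the shortest to the longest class. In the shortest class 1193 of 3263 genes were lower and 127 higher at an unadjusted p under 0.05, and in the longest class 78 were lower and 1546 higher. Of the 28 calls, 9 of those lower fell in the shortest class and 9 of those higher in the longest. Entering the length gradient as a covariate left 16 of the 28 called among 64 calls. Those include Rps27 (log2 fold change -0.57), Ryr3 (0.60), Grik3 (0.33), Megf11 (0.25), Srcap (0.28) and Trrap (0.26). What part RNA state, library preparation or age has in this order was not tested.

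**Figure D3:**
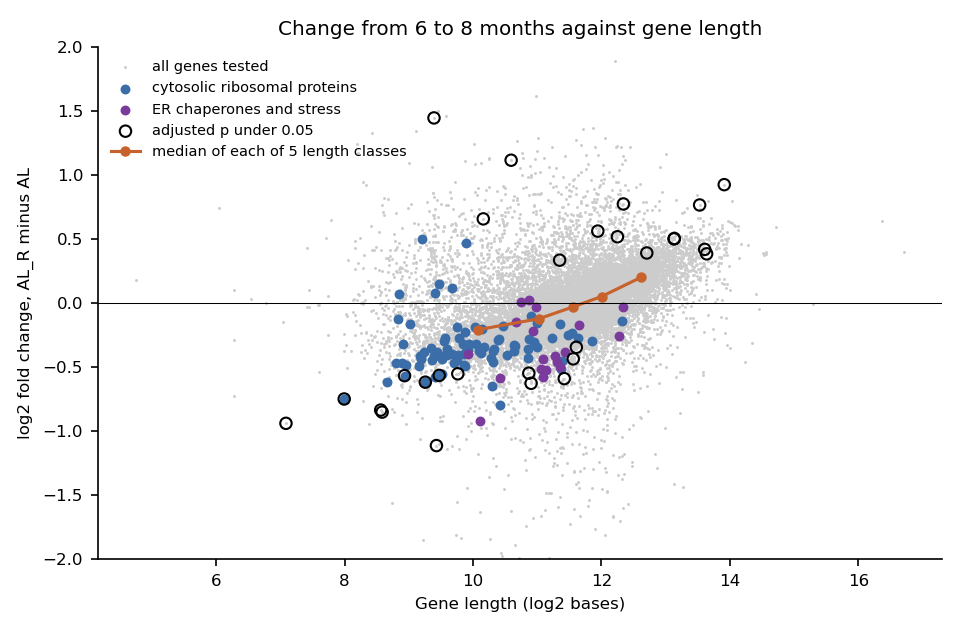
Each grey point is a gene tested, with log2 gene length on the x axis and the log2 fold change of AL_R against AL on the y axis (14 genes beyond ±2 are outside the axis). Blue points are cytosolic ribosomal protein genes, purple points are genes of the endoplasmic reticulum (ER) list, open circles are the 28 called genes, and the orange line joins the medians of the 5 length classes, from -0.21 to 0.20.

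Chaperones and stress genes of the endoplasmic reticulum were low for their length. These genes fold and modify secreted proteins, and when unfolded proteins build up they are induced together. None of 19 tested passed the test, with a smallest adjusted p of 0.0560, but 13 (68.4%) were lower and none higher at an unadjusted p under 0.05. Over all genes tested these shares were 17.5% and 15.9%. In 8 every AL_R library was below every AL library, beside 4.76% of all genes tested. The median log2 fold change was -0.40, while the length class that holds their median length of 2175 bases had -0.12, and it was -0.27 with the length gradient as a covariate. With AL replicates 4 and 5 left out together, 9 of the 19 were called lower, beside 230 of all 16587 genes tested. Without AL replicate 1, 11 were, beside 2350 of 16416. With the length gradient, the choroid plexus mean or both as covariates, 0 were called, beside 26, 0 and 47 genes lower of all 16313. With so few calls over all genes, 0 of 19 does not set this list apart from others.

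The classical control sequence of these genes is the ER stress response element, which is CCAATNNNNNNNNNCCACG. It was searched on both strands in the 250 bases before each RefSeq start. It was found for 6 of the 17 genes of the list that have an entry (35.3%) and for 18 of the 11546 genes tested that have one (0.156%), and for no ribosomal protein gene with an entry. The other 11 genes of the list with an entry have no match. The matches are printed with 10 flanking bases (GRCm38.p6). The list was made of known ER genes, of which this is the classical control sequence. Its higher share in the list therefore says nothing about these libraries. Each line reads 5′ to 3′ along the gene, with the element in capitals, so an element on the opposite strand appears as its reverse complement.
Hspa5 (chr2:34772015-34772053, plus strand): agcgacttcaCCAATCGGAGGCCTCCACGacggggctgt
Pdia6 (chr12:17266481-17266519, plus strand): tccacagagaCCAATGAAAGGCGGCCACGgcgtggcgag
Dnajc3 (chr14:118937817-118937855, plus strand): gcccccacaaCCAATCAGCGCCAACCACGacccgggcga
Creld2 (chr15:88819510-88819548, plus strand): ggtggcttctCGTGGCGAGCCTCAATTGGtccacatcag
Calr (chr8:84847065-84847103, minus strand): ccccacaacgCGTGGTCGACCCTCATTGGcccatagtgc
Hsp90b1 (chr10:86705523-86705666, minus strand): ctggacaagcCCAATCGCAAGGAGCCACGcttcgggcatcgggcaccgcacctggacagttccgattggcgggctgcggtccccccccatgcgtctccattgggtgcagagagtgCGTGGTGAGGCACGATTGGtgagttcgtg
Hsp90b1 holds 2 matches and the others 1. A match is a description of these letters only.

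Hspa5, the main ER chaperone, also called BiP, had 394, 378, 312, 305 and 410.1 CPM in AL and 302, 223, 243, 256 and 246 CPM in AL_R (log2 fold change -0.50, SE 0.101, adjusted p = 0.0560). AL_R replicate 1 was the highest of its group and just below the lowest AL library. Pdia6, a disulfide isomerase, had 130.5, 144, 129, 139 and 188 CPM in AL and 120, 87.0, 86.4, 100.01 and 96.5 CPM in AL_R (-0.58, SE 0.116, adjusted p = 0.0560). Creld2, an ER protein with disulfide isomerase activity, had 33.2 ± 6.8 and 22.2 ± 2.1 CPM (SD, n = 5 each), again without overlap. Calr, calreticulin, had 512 ± 88.3 and 379 ± 52.3 CPM, and its groups overlapped. Hsp90b1 and Dnajc3 carry the element as well but had unadjusted p of 0.0911 and 0.746 and log2 fold changes of -0.17 and -0.03. Sdf2l1, which has no match in its window, had the lowest log2 fold change of the list, -0.92 (SE 0.201). Xbp1, a transcription factor that induces these genes, had 146 ± 24.2 CPM in AL and 102 ± 7.0 in AL_R (adjusted p = 0.0560), whereas Atf4, which drives the amino acid arm of the stress response, had 130.3 ± 7.2 and 131 ± 5.8. ER genes were named after their values were seen.

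In the libraries of the fasted regimens, compared in the same way between 8 and 6 months, 11 of the 19 ER genes were lower and none higher at an adjusted p under 0.05, beside 11.6% of all genes lower and 13.1% higher. The summed level of the list was 2381, 2411, 2158, 2240 and 2912 CPM in AL and 2159, 1729, 1796, 1874 and 1849 CPM in AL_R, in replicate order. The AL_R library with the highest sum, replicate 1, has the most choroid plexus markers of its group, with a summed 1994 CPM. In AL the ER sums did not follow the order of these markers, which summed to 46.0, 2102, 2950, 4308 and 1257 CPM in replicates 1 to 5. What part choroid plexus content has in the ER sums was not tested.

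Cell type markers were read as sums over fixed lists, in which fewer cells of a type and less RNA per cell cannot be told apart. Summed Purkinje cell markers ranged from 6315 to 7626 CPM in AL and from 8047 to 8446 in AL_R, without overlap. No single marker of the 12 was called. Over all genes tested, 15.9% were higher and 17.5% lower at an unadjusted p under 0.05. At an unadjusted p under 0.05, 5 were higher, among them the inositol trisphosphate receptor Itpr1, at 2208 ± 516 and 3048 ± 77.0 CPM, and Pcp2, at 148 ± 32.3 and 205 ± 27.1 CPM (SD, n = 5 each). Ppp1r17, which is restricted to Purkinje cells in the cerebellum, went the other way, at 280 ± 17.6 and 255 ± 11.5 CPM (unadjusted p = 0.0429). Calb1, calbindin, had 907 ± 47.2 and 939 ± 35.0 CPM (unadjusted p = 0.365). The markers of this cell type therefore did not move as a block. The sum adds CPM, so abundant markers such as Itpr1 weigh most in it. The median log2 fold change of the 12 markers was 0.12, or 0.10 with the length gradient as a covariate.

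Granule cell markers summed to 8008 to 8920 CPM in AL and 8956 to 9058 in AL_R. Of 12 markers, 5 (41.7%) were higher at an unadjusted p under 0.05 and none lower, beside 15.9% and 17.5% of all genes tested. Reln, which encodes the secreted guidance protein reelin, had 203 ± 22.0 and 270.3 ± 8.8 CPM (adjusted p = 0.0511), and Fat2, a giant cadherin, 616 ± 66.4 and 765 ± 30.2 CPM (adjusted p = 0.0597; SD, n = 5 each). Slc17a7, the vesicular glutamate transporter of granule cells, had 897 ± 113 and 905 ± 21.5 CPM (unadjusted p = 0.880). Reln and Fat2 are long genes, of 11699 and 14528 bases, and Slc17a7 has 2939 bases.

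Oligodendrocyte markers summed to 5844 to 6935 CPM in AL and 5141 to 5703 in AL_R, again without overlap, and all 13 had negative log2 fold changes, the highest being -0.04. None was called, and 8 (61.5%) were lower at an unadjusted p under 0.05, beside 17.5% of all genes tested. In the list of precursors and new oligodendrocytes, 4 of 10 (40%) were lower and 0 higher at an unadjusted p under 0.05. Over all genes tested these shares were 17.5% and 15.9%. The median log2 fold change of that list was -0.14, and its members ran from -0.55 to 0.75. In it Olig2, a transcription factor of the lineage, had 31.6 ± 3.7 and 21.6 ± 2.9 CPM, and Sox10, another, 80.3 ± 11.6 and 60.5 ± 2.4 CPM, with adjusted p of 0.0560 and 0.0574 (SD, n = 5 each). The precursor markers Pdgfra and Cspg4 were at 17.7 ± 2.6 against 19.2 ± 1.2 and at 9.70 ± 1.1 against 11.2 ± 1.2 CPM. In the fasted arms, 1 of the 13 oligodendrocyte markers was called higher and 3 lower, beside 13.1% and 11.6% of all genes. Their median was 0.03 against -0.22 in the ad libitum mice. Microglia markers overlapped between the groups in their sum, with 6 of 16 (37.5%) lower at an unadjusted p under 0.05. With the length gradient as a covariate the oligodendrocyte median was -0.08 and the microglia median 0.00338.

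Other cells that a dissection can carry along were read as well. Of the choroid plexus markers, 2 of 12 (16.7%) were lower at an unadjusted p under 0.05, near the 17.5% of all genes, with sums of 46.0 to 4308 CPM in AL and 44.4 to 1994 CPM in AL_R. All 12 nevertheless had negative log2 fold changes, with a median of -1.47 and the highest at -0.34. In the fasted arms 10 of the 12 were called lower at 8 months, with a median of -1.69, beside 11.6% of all genes. Ependymal markers, of the ventricle lining, had 5 of 6 lower at an unadjusted p under 0.05 and summed to 31.5 to 52.8 and 27.4 to 37.0 CPM. Red blood cell markers had 3 of 5 higher at an unadjusted p under 0.05, beside 15.9% of all genes, summing to 11.0 to 58.2 CPM in AL and 8.67 to 114 CPM in AL_R. These groups overlapped in all 3 sums. With the choroid plexus mean as a covariate no gene of the table was called, and 2373 had an unadjusted p under 0.05. Some fold changes stayed close in size: Rps27 had -0.71 against -0.75, Gm13340 1.11 against 1.12, Rpl39 -0.61 against -0.62, Itpr3 0.52 against 0.50 and Srcap 0.38 in both, on the log2 scale. Others became smaller, such as Gm1821 (-0.93 against -1.11), Gm10076 (-0.74 against -0.85), Ryr3 (0.82 against 0.92) and Trrap (0.36 against 0.42). Rab37 (0.37 against 0.33) and Farp2 (0.59 against 0.56) became larger.

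**Figure D4:**
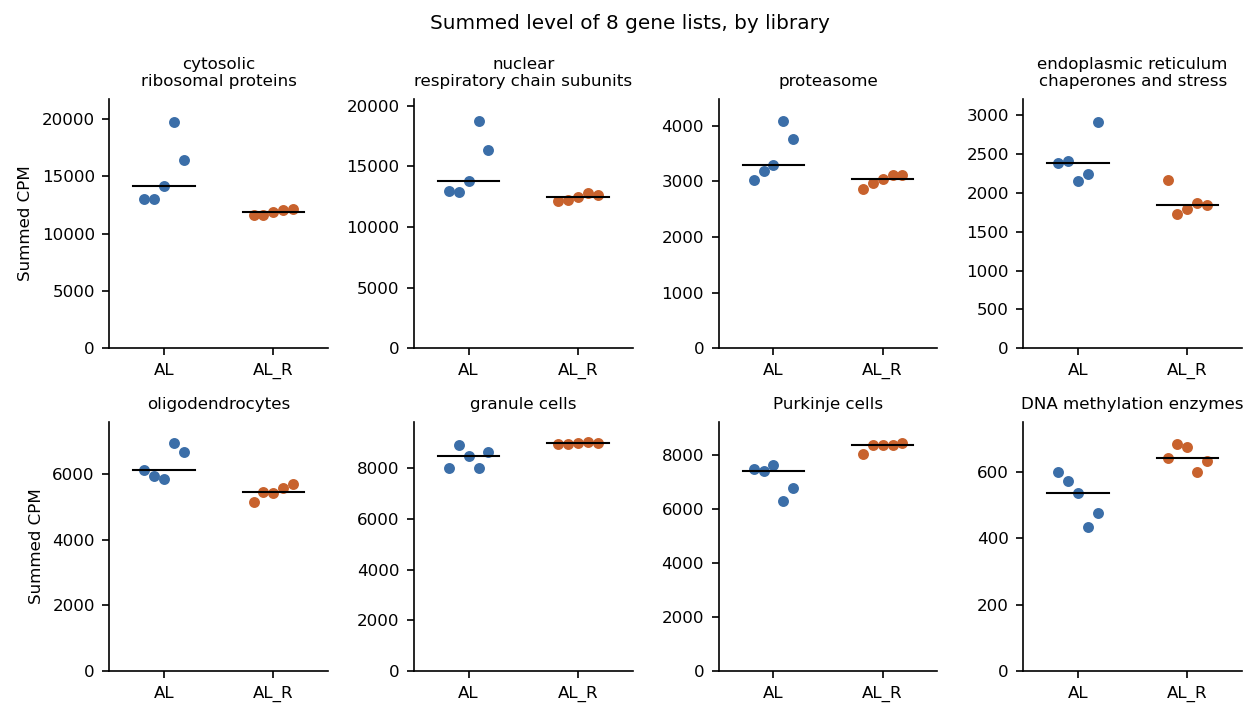
Summed CPM of 8 gene lists in each library, with AL on the left and AL_R on the right of each panel and a bar at the median. The y axes start at 0. AL_R libraries lie below AL for cytosolic ribosomal proteins, respiratory chain subunits and oligodendrocytes, and above AL for granule and Purkinje cells, while the sums of the proteasome, ER chaperones and DNA methylation enzymes overlap.

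Lists of regulators mostly had more members higher than lower, and none had a call. Of 10 DNA methylation enzymes and readers, with a median log2 fold change of 0.29, 5 (50%) were higher and none lower at an unadjusted p under 0.05. Over all genes tested, the shares higher and lower were 15.9% and 17.5%. Among the 5 were Tet2 (17.1 ± 2.4 CPM in AL and 24.7 ± 3.0 in AL_R), Tet3 (69.8 ± 11.9 and 97.4 ± 9.1), Tet1 (16.0 ± 3.8 and 22.2 ± 2.9) and Dnmt3a (112 ± 21.2 and 144 ± 10.3), with SD over n = 5 each. The Tet enzymes oxidise methylcytosine and Dnmt3a places it. Their adjusted p lay between 0.0571 and 0.0858. Dnmt1, which copies methylation at replication, had 98.0 ± 3.6 and 98.9 ± 8.9 CPM. The median length of the list is 7527.5 bases, in the longest class, whose median was 0.20, and with the length gradient as a covariate the median was 0.05. In the fasted arms 7 of the 10 were called higher, beside 13.1% of all genes. Of 22 genes for H3K9 methylation, the mark studied by chromatin immunoprecipitation in this series, 10 (45.5%) were higher and none lower at an unadjusted p under 0.05, with a median of 0.16. The median length of this list is 4452 bases, and with the length gradient as a covariate its median was 0.00715.

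Of 22 genes of the insulin and IGF pathway, 9 (40.9%) were higher and 3 (13.6%) lower at an unadjusted p under 0.05, beside 15.9% and 17.5% of all genes. In the list 5 lay wholly above AL, beside 5.18% of all genes. Its median length is 4633 bases, and its median log2 fold change was 0.15, or 0.06 with the length gradient as a covariate. The list includes Insr, the insulin receptor, at 54.8 ± 8.5 and 73.8 ± 3.6 CPM, and Foxo1, a transcription factor that insulin holds out of the nucleus, at 20.3 ± 1.3 and 25.9 ± 2.3 CPM (adjusted p = 0.0579 and 0.0573, SD, n = 5 each). Igfbp2, a binding protein made by choroid plexus and meninges, had 103 ± 49.6 and 42.5 ± 27.9 CPM. Of 22 circadian clock genes none was called. At an unadjusted p under 0.05, 10 (45.5%) were higher and 2 (9.09%) lower, beside 15.9% and 17.5% of all genes. In the fasted arms 4 were called higher and 4 lower, beside 13.1% and 11.6% of all genes, with a median of -0.02 against 0.16. The median length of the clock list is 4105 bases, and with the length gradient as a covariate its ad libitum median was 0.03. Nr1d2, a repressor of the clock, had 127 ± 18.5 and 170 ± 10.3 CPM (adjusted p = 0.0574), and Nfil3, which opposes the D-box activators, 28.4 ± 1.9 and 22.97 ± 2.3 CPM (adjusted p = 0.0639), while Arntl, the core activator, had 44.6 ± 2.8 and 41.2 ± 3.0 CPM. The hour of collection is not given in the sources used here. Genes of these 2 lists were named after their values were seen.

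The fasted arms cross the same 2 ages and the same 2 tables in 20 other libraries, and they also end a fasting regimen. In them 16611 genes were tested, of which 2174 were higher (13.1%) and 1927 lower (11.6%) at 8 months. Of the 28 genes called in ad libitum mice, 25 were also called in the fasted arms with the same sign. The number was 17 with the length gradient as a covariate, 22 in IF16 alone and 9 in EOD alone. Rps27 changed by -0.64 (SE 0.0931), Rpl39 by -0.59 (SE 0.0745), Ryr3 by 0.36 (SE 0.107), Itpr3 by 0.66 (SE 0.0627) and Gm13341 by 1.44 (SE 0.152) on the log2 scale, all at an adjusted p under 0.05. The exceptions were Jade3 at 0.01 (SE 0.0916), Serpinb1a at -0.04 (SE 0.0905) and 0610040J01Rik at 0.10 (SE 0.0639). Of the 4064 fasted-arm calls tested in ad libitum mice, 93.8% had the same sign there and 60.3% also had an unadjusted p under 0.05, while over all 16262 genes tested in both 77.1% had the same sign. Because both sets of mice cross the tables, this does not tell age from table. The medians of the length classes in the fasted arms ran from -0.11 to 0.11, and the choroid plexus markers had a median of -1.69 there.

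**Figure D5:**
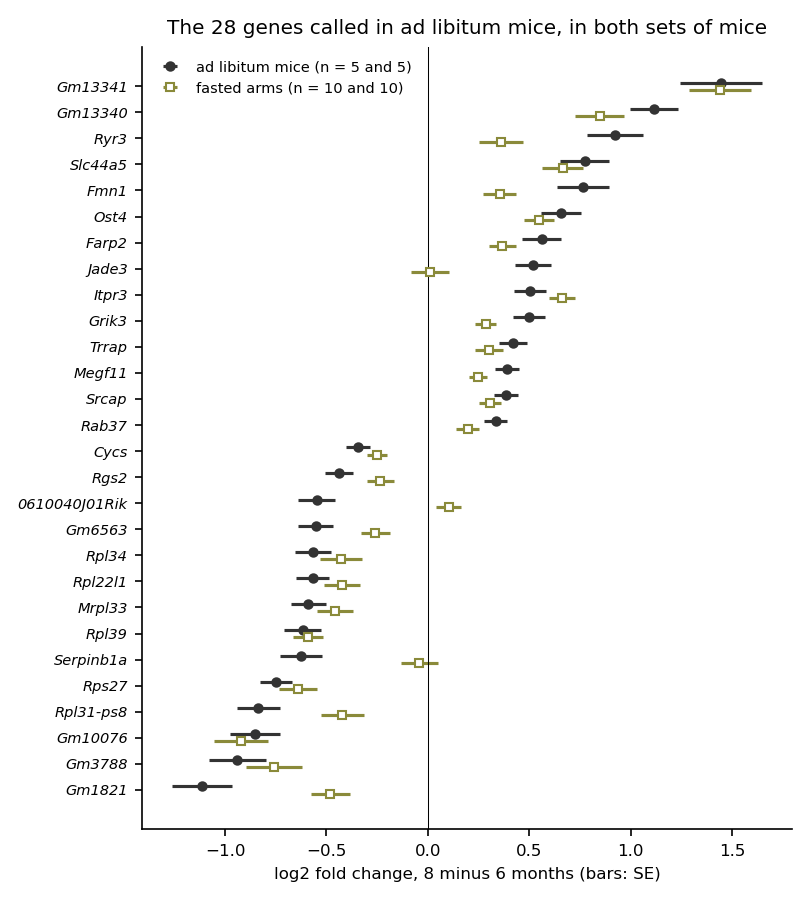
Log2 fold change of 8 against 6 months with its SE for the 28 genes called in ad libitum mice (filled circles, n = 5 and 5) and the same genes in the fasted arms (open squares, n = 10 and 10). Jade3 and Serpinb1a sit near 0 in the fasted arms and 0610040J01Rik is on the other side of 0, while the remaining 25 have the same sign in both.

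The change in ad libitum mice differed from the mean change of the fasted arms for 8 of 16877 genes (0.0474%), in a comparison added after the data were seen. Ciart, a repressor of the clock, had a log2 fold change of 0.41 in ad libitum mice and -0.27 in the fasted arms (difference 0.69, SE 0.114, adjusted p = 0.00610), and Tef, a D-box activator, 0.22 and -0.09 (difference 0.32, SE 0.0633, adjusted p = 0.0437). Col2a1, a collagen of cartilage and meninges, had -0.47 and 0.59 (difference -1.05, SE 0.160, adjusted p = 0.00586). Fads2, a fatty acid desaturase, had -0.13 and 0.26 (difference -0.39, SE 0.0719, adjusted p = 0.0207), and Etnppl, an astrocytic enzyme of phosphoethanolamine breakdown, -0.19 and -0.52 (difference 0.34, SE 0.0606, adjusted p = 0.0140). The others were Ctla2a, Loxhd1 and 0610040J01Rik. Of the 28 genes called in ad libitum mice, only 0610040J01Rik was among the 8, and its groups were 17.6 ± 1.9 CPM in AL and 12.03 ± 1.1 in AL_R (SD, n = 5 each). In 17 glucocorticoid response genes, 13 were called lower in the fasted arms, beside 11.6% of all genes. None was called in ad libitum mice, where only 0.172% of all genes were called and fewer libraries were compared. There 3 (17.6%) were higher and 1 (5.88%) lower at an unadjusted p under 0.05, beside 15.9% and 17.5% of all genes. The ad libitum median was 0.20 against -0.76 in the fasted arms, but no gene of that list was called for the difference.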

How the data were processed

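Whole-number read counts per gene were deposited by the authors in 2 tables of 35275 genes. Per the submitters' processing notes, STAR 2.5, HTSeq 0.6.1, DESeq2 and the mm10 build were used, with roles not given in the sources used here. RNA selection and strand setting are not given either, so overlapping genes and near-identical copies may exchange reads. The tables were joined by Ensembl identifier, and a mouse gene name table held 34490 of them.

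Counts were TMM-scaled over the joined libraries, filtered with filterByExpr and tested with edgeR 4.0.16 (quasi-likelihood test, R 4.3.3). P-values were adjusted by Benjamini-Hochberg over all genes tested, with calls under 0.05. CPM and SE come from that fit. Fasted arms were fitted apart, with regimen as an additive term, and the difference in a fit of 30 libraries. Alternatives used limma 3.58.1 and DESeq2 1.42.0, which left 1268 adjusted p not given. Scripts were tested on simulated data. Members, lists and alternatives were chosen with earlier results of these data known. The deposited FPKM tables were not used. Named genes are called genes with descriptive symbols and non-overlapping groups: the 10 highest and 10 lowest log2 fold changes, the 5 smallest p each way above 20 CPM, the best of each list, Ttr and the sex check genes, and members of lists with at most 12 tested. Others were named after their values were seen. Lists are described by counts, without a test. Some results are not reported here.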

Additional observations from a re-analysis of the deposited data

Results flagged for a closer look

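Of 62 checks of a single library against the other 4 of its group, 7 met the criterion for a value far from the rest, and chance alone gives about 1 in 20. Ttr was 1824 CPM in AL_R replicate 1, the library with the most choroid plexus markers of its group. AL_R replicate 4 stood apart from the other AL_R libraries for Rps27 (88.7 CPM, low), Srcap (138 CPM, low) and Gm13341 (5.54 CPM, high). Gm10076 was high in AL replicate 4 (40.6 CPM), Ost4 high in AL replicate 1 (6.65 CPM) and Gm6563 low in AL_R replicate 2 (6.15 CPM). In each of these the library lay on its own group's side of the other group, except Ttr, whose groups overlapped.

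The change of 0610040J01Rik in ad libitum mice differed from that in the fasted arms by -0.64 on the log2 scale, by a test of the difference (adjusted p = 0.00610).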

How the results depend on the processing

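The number of genes called, 28, was 2654 by DESeq2, 4030 with all 30 libraries in the fit, 452 without AL replicates 4 and 5, 64 with the length gradient as a covariate, 91 with gradient and choroid plexus mean, 0 with the choroid plexus mean alone (where the log2 fold change of Rps27 was -0.71 and of Gm13340 1.11), 18 among protein-coding genes and 2 for changes beyond 1.2-fold. With the choroid plexus mean alone, Gm1821 went from -1.11 to -0.93 and Ryr3 from 0.92 to 0.82 on the log2 scale. With a replicate block the number of genes called was 411. Correlations of same-numbered libraries, taken on deviations from the group means, ran from -0.293 to 0.186. Such correlations also carry broad differences like the length gradient, so they cannot show whether replicate numbers pair the libraries. Leaving out 1 library gave 2 to 4610. Scalings, limma-voom and other filters gave 20 to 33, with 30% higher under library totals and 39.3% under upper quartile scaling against 50% in the main fit. The fasted-arm count of 4101 was 1933 with the gradient, 2210 in IF16 alone and 642 in EOD alone, and 3320 to 5160 with 1 library left out. The 8 differences between feeding histories were 5 to 16 with 1 library left out. The gradient difference of 0.107 stayed between 0.0770 and 0.131 with 1 library left out, and the choroid plexus difference of -1.90 between -2.64 and -1.61. None of the 28 called genes reversed in any alternative run. Among check genes that were not called, Ttr went from -2.27 to 0.34 with both covariates, and with the length gradient Kdm5d went from 0.15 to -0.16, Ddx3y from 0.24 to -0.11 and Uty from 0.30 to -0.04. The cause of these shifts was not tested. In simulated counts of 16178 genes for the 2 groups, 47 of 100 changes of 0.5 and 85 of 98 of 1 on the log2 scale were called. Whether these shares hold for the libraries here, whose common coefficient of variation was 17.7% in AL and 7.30% in AL_R, was not tested.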
